A study of Mus musculus with 12 samples.

Results

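Each transcript cluster on the array was asked whether its response to doxycycline differed with and without the p38 inhibitor SB203580 in C2i-Myog myoblasts. The quantity was the interaction coefficient, the log2 change from SB to SB+Dox minus the log2 change from control to Dox. All 12 arrays of the series entered it, and it was computed for the 21789 of 35557 transcript clusters that carried exactly 1 gene symbol. A positive coefficient means that doxycycline moved the RNA further up, or less far down, with the inhibitor than without it, and a negative one means the reverse.

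C2i-Myog is a stable derivative of the mouse myoblast line C2C12 that carries a Flag-tagged mouse Myog cDNA under a doxycycline-inducible system. All 4 groups carried this transgene, were grown in 10% serum and were then switched to a low-serum medium (1% horse serum with added transferrin and insulin), which starts differentiation, for 48 h. The control group received neither agent, the Dox group received doxycycline at 0.2 µg/mL, the SB group received SB203580 at 10 µM, and the SB+Dox group received both from the same moment. Each group had 3 arrays, hybridised with total RNA. Doxycycline was given to no cells without the transgene, so the response to the drug itself and the response to exogenous Myog cannot be told apart. The labels do not say whether the line is 1 clone or whether the 3 arrays of a group came from separate cultures, so the p-values measure the spread between these arrays, which may be technical.

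Myogenin, the product of Myog, is a basic helix-loop-helix transcription factor that binds E-box sequences and drives myoblasts out of the cycle and into myotube formation. The p38 alpha and beta kinases, encoded by Mapk14 and Mapk11, are active during differentiation and act on MEF2 factors, on chromatin remodelling at muscle promoters and on the stability of many messenger RNAs. SB203580 occupies the ATP pocket of these kinases, and is known to act on some other kinases too.

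The labels describe inhibitor-treated cells as lacking p38, whereas Mapk14 RNA measured 7.53, 7.42 and 7.62 in SB against 7.28, 7.29 and 7.06 in control, and p38 activity was not measured here. The median log2 signal of an array was 4.86 to 5.06, and arrays of 1 group correlated at 0.9886 to 0.996 over the tested clusters. Endogenous and exogenous Myog share sequence and are not told apart by the array. Myog measured 9.66, 10.18 and 9.89 in control, 10.39, 10.30 and 10.40 in Dox, 6.93, 7.96 and 8.21 in SB, and 8.10, 8.23 and 8.68 in SB+Dox. The Dox arrays lay above the control arrays and the SB+Dox arrays lay among and above the SB arrays, with SB replicate 1 the lowest of all 12. The Myog change passed the test neither for Dox against control (0.46, adjusted p = 0.467) nor for SB+Dox against SB (0.64, adjusted p = 0.157), and its interaction was 0.18 ± 0.35 (SE, adjusted p = 0.88). SB+Dox cells held less Myog RNA than Dox cells (difference −2.03, adjusted p = 8.86e-05), so the doxycycline response with the inhibitor was measured at a lower Myog level, whose part in the results below was not tested. The muscle genes Des, Acta1, Ckm and Tnnt1 were far above the array median on all 12 arrays. Of the cell type marker lists, 11 of 13 blood and endothelial genes, 9 of 16 adipocyte genes and 9 of 18 fibroblast genes lay below the median of the tested clusters on all 12 arrays. So did 10 of 17 osteoblast and chondrocyte genes, but only 6 of 18 smooth muscle and 4 of 20 satellite and reserve cell genes. None of these lists had a member called in the interaction.

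The interaction passed the test for 195 of 21789 clusters (0.895%), which stand for 191 genes. A call means an adjusted p under 0.05 from limma with Benjamini-Hochberg adjustment over all 21789 clusters. Of the calls, 158 were positive (0.725%) and 37 were negative (0.17%), and 2490 clusters had an unadjusted p under 0.05. The median coefficient of all clusters was −0.03 with an SD of 0.26 across clusters. For scale, 1156 clusters (5.31%) were called in Dox against control, 311 higher (1.43%) and 845 lower (3.88%), and 1550 (7.11%) in SB+Dox against SB, 959 higher (4.4%) and 591 lower (2.71%).

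The number of calls rested on single arrays and on the pool of clusters. It fell to 27 without SB replicate 2, to 28 without SB+Dox replicate 3 and to 47 without control replicate 1, and it rose to 352 without SB replicate 3. Without Dox replicate 2 or SB replicate 1 it was 56, and the other left-out arrays gave 93, 93, 99, 115, 116 and 123. Of the 195 called clusters, 195 kept the sign of their coefficient in all 12 such fits and 24 were called in all 12, of which 15 were positive and 9 negative. The 195 were selected in the same arrays for coefficients large against their error, so the kept sign is a weak check. Quantile normalisation gave 50 positive and 29 negative calls, so that the share of positive calls depended on scaling. When all 35557 clusters shared 1 estimate of the spread, 6 were called, 5 of them among the 195.

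**Figure D1:**
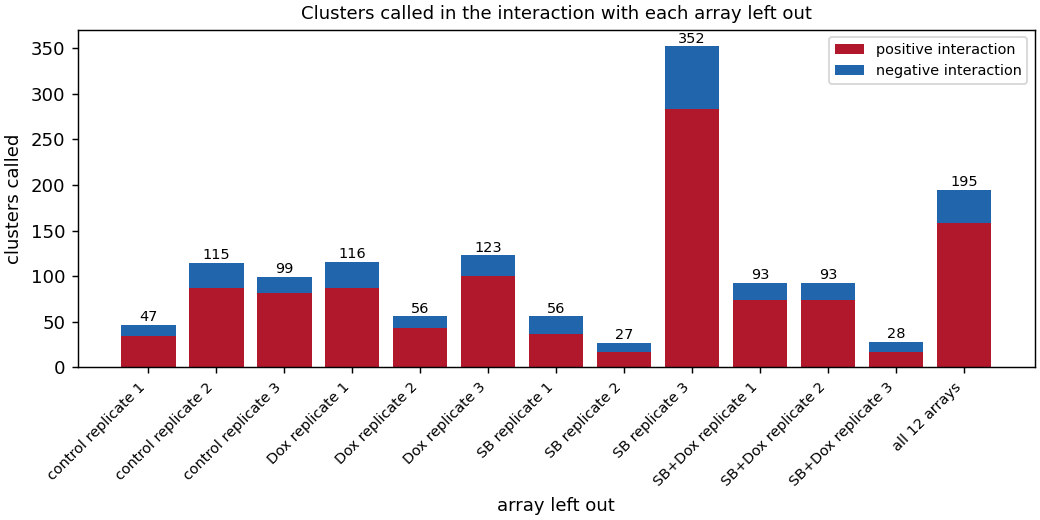
Number of transcript clusters called in the interaction (bar height, positive in red and negative in blue) when each array named on the horizontal axis was left out of the fit, with the fit to all 12 arrays at the right. The total ran from 27 without SB replicate 2 to 352 without SB replicate 3, against 195 with all arrays.

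The called clusters were sorted by which of the pair of doxycycline responses passed its own test, as a description of the same arrays. In 100 clusters the response passed without the inhibitor only: doxycycline lowered 72 of them and raised 28. In 68 it passed with the inhibitor only, 62 raised and 6 lowered. Another 12 responded in the same direction in both settings, 12 in opposite directions, and 3 (Inhba, Hbegf and Magea7-ps) passed in neither. With a block for the replicate number these 3 passed in SB+Dox against SB (adjusted p = 0.0105, 0.0494 and 0.0496). All 37 negative coefficients belonged to clusters whose mean was higher in Dox than in control, and 31 of the 37 had a lower mean in SB+Dox than in SB. Of the 158 positive ones, 132 had a lower mean in Dox than in control and 129 a higher mean in SB+Dox than in SB. These directions follow in part from the sign of the coefficient by which the clusters were selected.

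**Figure D2:**
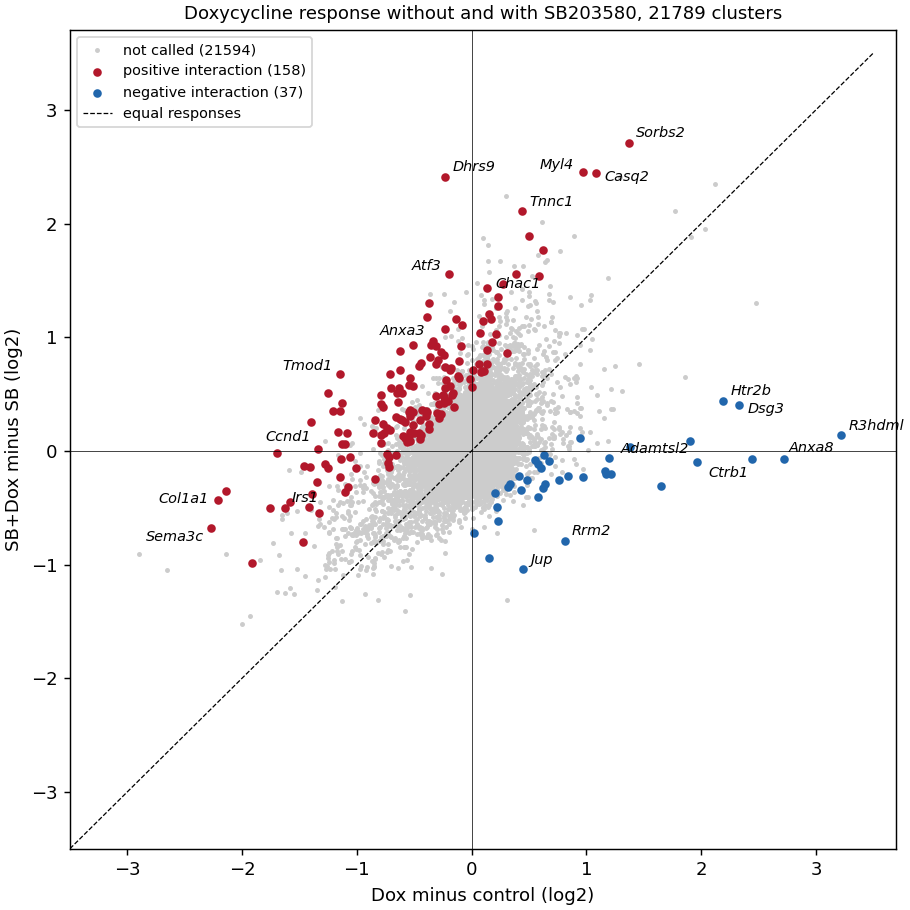
Doxycycline change without the inhibitor (horizontal, log2, Dox minus control) against the change with it (vertical, log2, SB+Dox minus SB) for 21789 transcript clusters, 1 point each. The 158 positive interactions lie above the dashed line of equal responses and the 37 negative ones below it, the latter all to the right of 0 on the horizontal axis.

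Genes whose rise with doxycycline passed the test without the inhibitor only made up most of the negative set, with 28 of 37 clusters. Of these 28, 6 also had a higher mean in SB+Dox than in SB. The 15 most negative coefficients of named genes ran from −1.27 to −3.07. R3hdml, which encodes a CAP-family protein with a secretion signal, measured 5.12, 6.23 and 5.52 in control, 8.54, 9.53 and 8.46 in Dox, 5.02, 5.11 and 4.81 in SB, and 4.89, 5.09 and 5.39 in SB+Dox. The 3 Dox arrays stood above the other 9, and SB and SB+Dox overlapped. Doxycycline raised R3hdml 9.29-fold without the inhibitor (log2 3.22, adjusted p = 2.16e-05), while the change with it was 0.14 (adjusted p = 0.802). The interaction was −3.07 ± 0.39 (SE, adjusted p = 0.00381), the most negative of the called genes, and R3hdml was called whichever array was left out.

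Ctrb1, which encodes chymotrypsinogen B, a protease precursor known from the pancreas, measured 7.47, 8.53 and 7.93 in control, 10.20, 10.69 and 10.37 in Dox, 5.80, 6.10 and 5.65 in SB, and 5.70, 5.95 and 5.68 in SB+Dox. Here the inhibitor alone lay below control on all 3 arrays, and doxycycline left the inhibited cells within the same range. The change was 2.44 without the inhibitor (5.44-fold, adjusted p = 2.16e-05) and −0.07 with it (adjusted p = 0.875), an interaction of −2.52 ± 0.30 (adjusted p = 0.00253). Anxa8, an annexin that binds membranes in a calcium-dependent way, followed the same order, with 5.30, 6.45 and 6.92 in control, 8.71, 8.57 and 9.55 in Dox, 4.36, 4.67 and 4.19 in SB, and 4.41, 4.43 and 4.18 in SB+Dox. Its interaction was −2.79 ± 0.45 (adjusted p = 0.015), and the call was lost without SB replicate 2 (adjusted p = 0.0605) and without SB+Dox replicate 3 (0.0516). The Anxa8 values of the inhibited cells lay below the array medians. Among the 37 negative clusters, 16 had SB and SB+Dox means below the median of the tested clusters, against 6 of the 158 positive ones. A Dox mean below that median was found in 25 of the 158 positive and 6 of the 37 negative clusters. Low values therefore touch both signs, but low values in the inhibited groups touch a larger share of the negative clusters.

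The desmosome cadherin gene Dsg3 measured 4.75, 5.48 and 4.97 in control, 7.07, 7.51 and 7.60 in Dox, 3.66, 4.07 and 3.54 in SB, and 3.89, 4.09 and 4.49 in SB+Dox. Its Dox arrays stood above all others and the inhibited arrays lay below control. Doxycycline raised Dsg3 by 2.33 without the inhibitor (adjusted p = 2.16e-05) and the change with it was 0.40 (adjusted p = 0.28), which gave an interaction of −1.92 ± 0.29 (adjusted p = 0.0109). Lamb3, the beta-3 chain of the epithelial laminin-332, measured 5.41, 5.54 and 5.64 in control, 6.94, 6.47 and 6.79 in Dox, 5.46, 5.46 and 4.96 in SB, and 5.06, 5.17 and 5.05 in SB+Dox. The Lamb3 values of Dox stood above the other 9 arrays, SB overlapped control and SB+Dox lay below control. Its interaction was −1.41 ± 0.20 (adjusted p = 0.00852). Serpinb9e, a member of a mouse serpin cluster, had an interaction of −1.81 ± 0.29 (adjusted p = 0.014). Dsg3, Lamb3 and Serpinb9e were called whichever array was left out. The Dsg3 and Serpinb9e values of the inhibited cells lay below the array medians. Jup, which encodes the junction protein plakoglobin, differed in kind, since its response passed with the inhibitor only: it fell by 1.04 from SB to SB+Dox (adjusted p = 0.0101), for an interaction of −1.49 that was lost in 10 of the 12 left-out fits, with adjusted p up to 0.106.

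Adamtsl2, Ltbp2 and Fst are negative genes whose products act outside the cell on ligands of the TGF-beta family or on the matrix that holds them. Adamtsl2, a matrix glycoprotein that binds latent TGF-beta binding protein and fibrillin, measured 5.48, 5.83 and 5.51 in control, 7.05, 8.01 and 7.64 in Dox, 5.44, 5.37 and 4.94 in SB, and 5.25, 5.17 and 5.03 in SB+Dox. The Dox arrays were the 3 highest and the SB and SB+Dox arrays overlapped. Doxycycline raised Adamtsl2 by 1.96 without the inhibitor (adjusted p = 5.21e-05) and changed it by −0.10 with it (adjusted p = 0.804), an interaction of −2.06 ± 0.28 (adjusted p = 0.00673). Ltbp2, a microfibril protein of the latent TGF-beta binding protein family, measured 7.46, 7.53 and 7.34 in control, 8.61, 8.49 and 8.73 in Dox, 6.60, 6.22 and 6.62 in SB, and 6.25, 6.05 and 6.61 in SB+Dox. The groups fell in 3 levels, Dox above control and control above the inhibited arrays, with SB and SB+Dox overlapping. Its interaction was −1.34 ± 0.20 (adjusted p = 0.0101), and Adamtsl2 and Ltbp2 were each called whichever array was left out. Fst, which encodes follistatin, an antagonist of activin and myostatin, had an interaction of −1.27 ± 0.23 (adjusted p = 0.0251) from a rise of 1.20 without the inhibitor against −0.06 with it. The Fst call did not survive leaving out replicate 1 or 3 of control (adjusted p = 0.0612 and 0.057), replicate 1 or 2 of SB (0.071 and 0.0796) or replicate 3 of SB+Dox (0.0713).

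Among positive genes of the same pathway, Inhba, the activin A subunit, had a positive interaction of 1.09 ± 0.24 (adjusted p = 0.05), as did Smurf1, a ubiquitin ligase for SMAD proteins, with 0.76 ± 0.15 (adjusted p = 0.0324). Inhba was lost in 10 and Smurf1 in 9 of the 12 left-out fits, with adjusted p up to 0.15 and 0.102. In the TGF-beta and BMP list, 2 of 38 measured members were called positive and 2 negative, or 10.5% against 0.938% over all genes, and the median coefficient was 0.02 against −0.03. With 1 array left out, 0 to 4 were called positive and 1 or 2 negative, the 4 without SB replicate 3.

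Promoter windows are shown for R3hdml, Ctrb1 and Adamtsl2 because myogenin binds E-boxes, whose general letters are CANNTG. The windows run from 250 bases before to 50 bases after the annotated start, in the RefSeq table for build GRCm38.p6, and capitals mark each CANNTG match, which reads the same pattern on both strands. The R3hdml window is chr2:163492068-163492367 on the plus strand, the Ctrb1 window chr8:111690961-111691260 on the minus strand and the Adamtsl2 window chr2:27079129-27079428 on the plus strand.
R3hdml: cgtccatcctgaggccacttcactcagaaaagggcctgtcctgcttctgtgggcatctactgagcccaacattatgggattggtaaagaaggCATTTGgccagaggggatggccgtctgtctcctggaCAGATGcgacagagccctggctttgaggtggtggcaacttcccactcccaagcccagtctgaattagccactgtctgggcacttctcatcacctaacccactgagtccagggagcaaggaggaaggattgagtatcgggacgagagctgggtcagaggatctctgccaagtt
Ctrb1: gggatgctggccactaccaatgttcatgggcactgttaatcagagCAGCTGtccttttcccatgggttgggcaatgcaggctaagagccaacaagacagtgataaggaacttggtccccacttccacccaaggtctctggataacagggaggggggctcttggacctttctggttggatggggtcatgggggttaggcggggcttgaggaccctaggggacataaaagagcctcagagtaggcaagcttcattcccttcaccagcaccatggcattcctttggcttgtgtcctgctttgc
Adamtsl2: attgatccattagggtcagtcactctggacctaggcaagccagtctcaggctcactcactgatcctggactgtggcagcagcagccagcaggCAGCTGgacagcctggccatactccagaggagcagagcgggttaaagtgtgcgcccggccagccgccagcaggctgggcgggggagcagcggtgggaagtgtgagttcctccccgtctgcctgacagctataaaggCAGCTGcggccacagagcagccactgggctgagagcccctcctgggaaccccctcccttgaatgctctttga
The Adamtsl2 window holds 2 matches and the Ctrb1 window 1, all of them CAGCTG, an E-box form counted within CANNTG too. The CAGCTG form was in 26.3% of 38 windows of negative genes, 14.6% of 151 windows of positive genes and 16.3% of all 32851 windows. CANNTG itself was in 73.7%, 60.9% and 72.3% of these windows. Of the other windows read for this pattern, Anxa8, a doxycycline-raised gene like the 3 shown, held 0 matches, Tmod1 and Myl4 held 0 and Tnnc1 held 2. These shares describe letters in short windows, and binding was not measured.

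**Figure D3:**
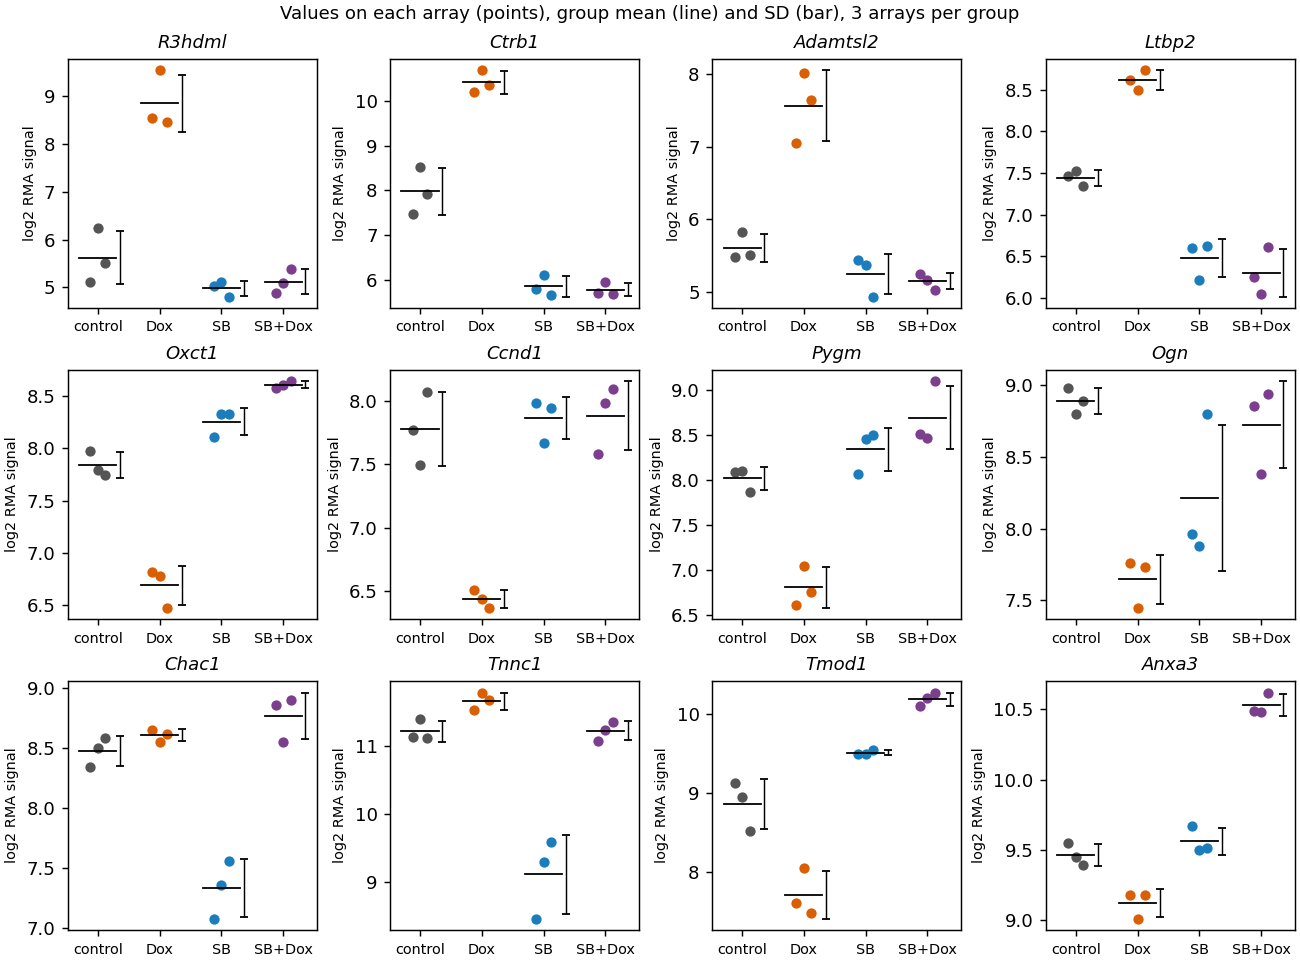
Log2 RMA signal on each array (points) for 12 genes called in the interaction, with the group mean (line) and SD (bar) of 3 arrays. In the top row the Dox arrays stand above all others and SB and SB+Dox overlap. In the middle row the Dox arrays are the lowest, and in the bottom row Chac1 and Tnnc1 are lowest in SB while Tmod1 and Anxa3 are highest in SB+Dox.

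Genes whose fall with doxycycline passed the test without the inhibitor only were the largest class, with 72 clusters. Of these, 23 also had a lower mean in SB+Dox than in SB, a fall that did not pass. Across all 158 positive clusters the Dox group had the lowest mean in 105, and the SB group in 50. In 79 the 3 Dox arrays lay below the other 9, which held for 1184 of all 21789 clusters. A positive coefficient itself favours a low mean in Dox or SB. These counts therefore describe the selected clusters and are not separate evidence. Oxct1, the enzyme that activates ketone bodies for oxidation, measured 7.98, 7.79 and 7.75 in control, 6.82, 6.78 and 6.48 in Dox, 8.11, 8.33 and 8.33 in SB, and 8.58, 8.61 and 8.64 in SB+Dox. The groups did not overlap, with Dox lowest and SB+Dox highest. Doxycycline lowered Oxct1 2.22-fold without the inhibitor (−1.15, adjusted p = 3.15e-05) against 0.35 with it (adjusted p = 0.0657), an interaction of 1.50 ± 0.15 (adjusted p = 8.59e-04). Oxct1 was called whichever array was left out and in the fit to all 35557 clusters (adjusted p = 0.0109).

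Pygm, the muscle form of glycogen phosphorylase, measured 8.09, 8.10 and 7.87 in control, 6.61, 7.05 and 6.76 in Dox, 8.07, 8.46 and 8.50 in SB, and 8.52, 8.47 and 9.10 in SB+Dox. The Dox arrays lay below the other 9, and the change was −1.21 without the inhibitor (adjusted p = 4.91e-04) and 0.35 with it (adjusted p = 0.249). Its interaction of 1.56 ± 0.24 (adjusted p = 0.0122) was called whichever array was left out. In the muscle metabolism list, Pygm and Cox6a2 were the 2 of 32 members called (6.25% against 0.938% over all genes), and the list's median was 0.08. Both were positive, where over all genes 152 calls were positive and 35 negative. With 1 array left out, 1 to 3 members were called, with 1 in 9 of the 12 fits. Cox6a2, the muscle isoform of a cytochrome oxidase subunit, moved the other way from Pygm in uninhibited cells: it rose by 0.62 without the inhibitor (adjusted p = 0.0493) and by 1.77 with it (adjusted p = 5.57e-05). Its interaction of 1.16 ± 0.24 (adjusted p = 0.0413) was lost in 10 of the 12 left-out fits, with adjusted p up to 0.117.

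Ccnd1, which encodes cyclin D1, a driver of G1 progression, measured 7.77, 7.49 and 8.07 in control, 6.51, 6.44 and 6.37 in Dox, 7.98, 7.67 and 7.94 in SB, and 7.58, 7.98 and 8.09 in SB+Dox. Only the Dox arrays were apart, and the other 9 overlapped. Doxycycline lowered Ccnd1 2.53-fold without the inhibitor (−1.34, adjusted p = 1.27e-04) and the change with it was 0.02 (adjusted p = 0.945). The interaction was 1.36 ± 0.21 (adjusted p = 0.0135), and the call was lost without SB replicate 2 (adjusted p = 0.0525). Cdk6, a kinase that pairs with D cyclins, measured 8.39, 8.28 and 8.29 in control, 7.78, 7.86 and 7.71 in Dox, 7.93, 7.74 and 7.76 in SB, and 7.98, 8.17 and 8.36 in SB+Dox. Control lay above Dox, and SB+Dox above SB. Its interaction was 0.90 ± 0.15 (adjusted p = 0.0164), and the call needed replicate 1 of control, replicate 2 of SB and replicate 3 of SB+Dox (adjusted p = 0.0504, 0.0615 and 0.0516 without each). Gas1, a membrane protein of growth-arrested cells that also binds Hedgehog, fell in both settings, by 1.91 without the inhibitor (adjusted p = 9.20e-06) and by 0.99 with it (adjusted p = 8.09e-04). The Gas1 interaction of 0.92 was lost in 10 left-out fits with adjusted p up to 0.128. The 3 of 22 cell cycle exit genes called were Ccnd1, Gas1 and Cdk6 (13.6% against 0.938% over all genes), and the list's median was 0.25. All 3 were positive, where over all genes 152 calls were positive and 35 negative. None of the 3 was called without SB replicate 2, and 1 was called without control replicate 1 or SB+Dox replicate 3.

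Matrix genes were called in both directions. Ogn, the small leucine-rich proteoglycan osteoglycin, measured 8.98, 8.80 and 8.89 in control, 7.76, 7.45 and 7.73 in Dox, 7.96, 7.88 and 8.80 in SB, and 8.85, 8.38 and 8.94 in SB+Dox. The Dox arrays were the 3 lowest, and SB replicate 3 lay well above the other SB arrays. The change was −1.25 without the inhibitor (adjusted p = 0.00158) and 0.51 with it (adjusted p = 0.161), an interaction of 1.76 ± 0.29 (adjusted p = 0.0155) that was lost without SB replicate 2 (0.0556) and SB+Dox replicate 3 (0.0516). Col1a1, the alpha-1 chain of type I collagen, measured 8.62, 9.28 and 9.92 in control, 6.79, 6.81 and 7.57 in Dox, 6.78, 6.50 and 7.09 in SB, and 6.43, 6.23 and 6.40 in SB+Dox. For Col1a1 the control arrays stood above the other 9 and each agent alone gave a low level. Its level fell by 2.49 from control to SB (adjusted p = 6.10e-05). The interaction of 1.78 ± 0.38 (adjusted p = 0.0434) was lost in 9 of the 12 left-out fits, with adjusted p up to 0.133.

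Aspn, another small leucine-rich proteoglycan, was also highest in control, with 6.29, 5.99 and 5.76 in control against 3.50 to 4.76 on the other arrays, and an interaction of 1.80 ± 0.32 (adjusted p = 0.0231) that was lost in 5 left-out fits, with adjusted p up to 0.0771. Nid1, the basement membrane linker nidogen-1, had an interaction of 1.01 ± 0.17 (adjusted p = 0.0194), lost without SB replicate 1 (0.0514), SB replicate 2 (0.0654) and SB+Dox replicate 3 (0.0547). Has2, which makes hyaluronan, had 0.92 ± 0.19 (adjusted p = 0.0364) and was lost in 9 left-out fits. Col11a1, the alpha-1 chain of the fibrillar collagen XI, went the opposite way, from a rise of 0.62 without the inhibitor (adjusted p = 0.00251) to −0.33 with it (adjusted p = 0.092). Its interaction was −0.95 ± 0.15 (adjusted p = 0.015), lost without SB+Dox replicate 3 (0.0516). Of 55 measured matrix genes, 4 were called positive (Col1a1, Ogn, Nid1 and Loxl4) and 2 negative (Col11a1 and Timp3), which is 10.9% against 0.938% over all genes, with a median of 0.16. Leaving out SB replicate 2 took this to 0 positive and 1 negative, and leaving out SB+Dox replicate 3 to 0 and 0. Doxycycline itself raised 5 and lowered 15 of the 55 without the inhibitor, and raised 7 and lowered 9 with it. Over all clusters 1.43% were raised and 3.88% lowered without the inhibitor, and 4.4% and 2.71% with it. Of 18 measured fibroblast markers, of which Col3a1, Dcn and Lum are also in the matrix list, doxycycline lowered 6 without the inhibitor and 2 with it. The mean of those markers was 5.55 to 5.74 over the control arrays and 5.20 to 5.25 over Dox, against 5.61 to 5.73 over SB and 5.40 to 5.42 over SB+Dox, and their part in the matrix counts was not tested. Left-out fits gave 2 to 6 markers lowered without the inhibitor and 2 to 5 with it. A fall in a bulk culture can come from fewer cells of a kind or from less RNA per cell, and these cannot be told apart here.

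Irs1, the insulin receptor substrate that carries insulin and IGF signals, measured 9.12, 8.70 and 8.64 in control, 7.34, 7.11 and 7.13 in Dox, 8.67, 8.36 and 8.73 in SB, and 7.92, 8.31 and 8.04 in SB+Dox. The Dox arrays were the 3 lowest, while SB+Dox lay below SB by 0.50 (adjusted p = 0.0502, or 0.0457 with a block for the replicate number). The fall of 1.63 without the inhibitor (adjusted p = 2.16e-05) gave an interaction of 1.13 ± 0.20 (adjusted p = 0.0231), lost in 6 left-out fits with adjusted p up to 0.0761. Irs1 was the 1 called member among 22 genes of the IGF axis (4.55% against 0.938% over all genes), a share that rests on 1 gene. The carbonic anhydrase gene Car2 fell by 1.70 without the inhibitor (adjusted p = 2.64e-04) and changed by −0.02 with it, an interaction of 1.67 ± 0.31 (adjusted p = 0.025) lost in 5 left-out fits with adjusted p up to 0.0654. Bend6, which encodes a BEN-domain nuclear protein, had 1.65 ± 0.25 (adjusted p = 0.0109) and was called whichever array was left out.

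Genes whose rise with doxycycline passed the test with the inhibitor only numbered 62 clusters. Among them were the called genes of the ATF4 and integrated stress response list. In 20 of the 62 the mean was also higher in Dox than in control, a rise that did not pass. ATF4 is a transcription factor whose translation rises when eIF2 alpha is phosphorylated, and its targets import amino acids, make serine, proline and asparagine, and charge transfer RNAs. Of 47 measured members, 11 were called positive and 0 negative, or 23.4%. Over all genes the share was 0.938%, with 152 positive and 35 negative calls. The list's median coefficient was 0.71 against −0.03 over all genes. From SB to SB+Dox 38 of the 47 rose and 0 fell, where 4.4% of all clusters rose. From control to Dox 1 rose and 0 fell, where 1.43% of all clusters rose, and with a block for the replicate number 7 rose and 1 fell. The mean of the list ran from 8.34 to 8.68 over the control arrays, 8.44 to 8.83 over Dox, 7.63 to 7.89 over SB and 8.50 to 8.81 over SB+Dox, so that the SB arrays lay below the other 9, whose ranges overlapped.

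Chac1, which degrades glutathione and is a stress-induced ATF4 target, measured 8.34, 8.50 and 8.58 in control, 8.65, 8.55 and 8.62 in Dox, 7.08, 7.36 and 7.56 in SB, and 8.86, 8.55 and 8.90 in SB+Dox. The 3 SB arrays were below the other 9, and SB+Dox overlapped Dox. Doxycycline raised Chac1 2.7-fold with the inhibitor (1.43, adjusted p = 3.95e-05) against 0.13 without it (adjusted p = 0.782). The interaction was 1.30 ± 0.18 (adjusted p = 0.00695), called whichever array was left out. Atf3, a stress-induced transcription factor that is also an immediate early gene, measured 7.80, 7.59 and 8.08 in control, 7.50, 7.19 and 8.19 in Dox, 7.29, 7.02 and 6.93 in SB, and 8.69, 8.18 and 9.06 in SB+Dox. All 3 SB+Dox arrays lay above all 3 SB arrays, and Dox overlapped control. Its interaction was 1.76 ± 0.34 (adjusted p = 0.0275), and it was lost in 8 of the 12 left-out fits with adjusted p up to 0.0866.

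The amino acid carriers Slc1a4, which takes up small neutral amino acids, and Slc6a9, a glycine transporter, had interactions of 1.21 ± 0.24 (adjusted p = 0.0355) and 1.17 ± 0.25 (adjusted p = 0.0484), and each was lost in 9 left-out fits, with adjusted p up to 0.102 and 0.13. The other called members were Wars (1.12), Psat1 (1.08), Aldh18a1 (1.04), Asns (1.03), Slc7a5 (0.99), Slc3a2 (0.82) and Gars (0.64). They encode tryptophanyl-tRNA synthetase, an enzyme of serine synthesis, one of proline synthesis, asparagine synthetase, the light and heavy chains of a large neutral amino acid exchanger, and glycyl-tRNA synthetase. Atf4 itself had a coefficient of 0.67 (adjusted p = 0.105), and Cth, Trib3 and Ddit3 had larger ones, 1.94, 1.67 and 1.42, that did not pass (adjusted p = 0.164, 0.0897 and 0.0706). The list's count of called members ran from 1 without SB replicate 2 or SB+Dox replicate 3 to 21 without SB replicate 3. Its median stayed between 0.62 and 0.84 in the 12 left-out fits, and between 34 and 38 members rose from SB to SB+Dox in each. Quantile normalisation left 2 members called with a median of 0.65, and the fit to all 35557 clusters left 0. A block for the replicate number gave 33 called members and array weights gave 26. The 22 endoplasmic reticulum chaperone genes and the 23 genes of mitochondrial stress had 0 members called, with medians of 0.13 and 0.22.

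Promoter windows of called members of this list are shown for the amino acid response element, searched as TGATGNAA on both strands, a pattern chosen after these results were seen. Capitals mark the match, which may lie on either strand. The Chac1 window is chr2:119350992-119351291 (plus strand), Asns chr6:7693160-7693459 (minus strand), Atf3 chr1:191183284-191183583 (minus strand), Slc1a4 chr11:20332664-20332963 (minus strand) and Gars chr6:55037751-55038050 (plus strand), all from RefSeq on GRCm38.p6.
Chac1: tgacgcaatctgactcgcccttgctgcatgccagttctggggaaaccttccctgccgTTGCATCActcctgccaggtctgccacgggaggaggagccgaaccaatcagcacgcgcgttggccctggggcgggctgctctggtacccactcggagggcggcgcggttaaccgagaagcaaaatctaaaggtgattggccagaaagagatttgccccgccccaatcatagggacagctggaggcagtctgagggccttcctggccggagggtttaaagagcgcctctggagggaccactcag
Asns: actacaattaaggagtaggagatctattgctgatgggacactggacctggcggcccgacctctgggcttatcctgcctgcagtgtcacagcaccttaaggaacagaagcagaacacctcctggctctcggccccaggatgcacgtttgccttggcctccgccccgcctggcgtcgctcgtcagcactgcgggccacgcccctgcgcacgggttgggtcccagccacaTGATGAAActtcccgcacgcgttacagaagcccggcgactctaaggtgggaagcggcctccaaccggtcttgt
Atf3: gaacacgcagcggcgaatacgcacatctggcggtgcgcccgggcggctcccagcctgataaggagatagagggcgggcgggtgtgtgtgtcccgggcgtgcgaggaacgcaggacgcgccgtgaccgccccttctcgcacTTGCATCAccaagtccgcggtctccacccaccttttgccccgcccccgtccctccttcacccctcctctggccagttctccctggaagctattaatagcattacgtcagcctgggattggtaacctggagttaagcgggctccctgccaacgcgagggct
Slc1a4: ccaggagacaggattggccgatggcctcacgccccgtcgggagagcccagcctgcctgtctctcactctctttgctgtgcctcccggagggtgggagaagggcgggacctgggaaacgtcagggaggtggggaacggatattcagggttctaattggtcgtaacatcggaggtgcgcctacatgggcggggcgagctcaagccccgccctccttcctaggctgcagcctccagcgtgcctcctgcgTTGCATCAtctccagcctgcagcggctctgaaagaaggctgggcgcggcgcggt
Gars: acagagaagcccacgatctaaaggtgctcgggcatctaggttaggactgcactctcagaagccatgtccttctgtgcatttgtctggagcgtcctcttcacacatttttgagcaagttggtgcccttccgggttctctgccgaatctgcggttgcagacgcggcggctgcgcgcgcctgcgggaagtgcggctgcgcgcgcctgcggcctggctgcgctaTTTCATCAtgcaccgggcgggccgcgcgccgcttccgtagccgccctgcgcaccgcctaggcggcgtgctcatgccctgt
Each of these windows holds 1 match, and the windows of Psat1, Slc3a2, Aldh18a1 and Slc6a9 hold 0. The pattern was in 30.4% of 46 windows of the list, in 41.7% of 12 windows of its called members and in 3.97% of all 32851 windows. No window of a negative gene held it, of 38. The list was written from known ATF4 targets, so that this share follows from how its members were picked.

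**Figure D4:**
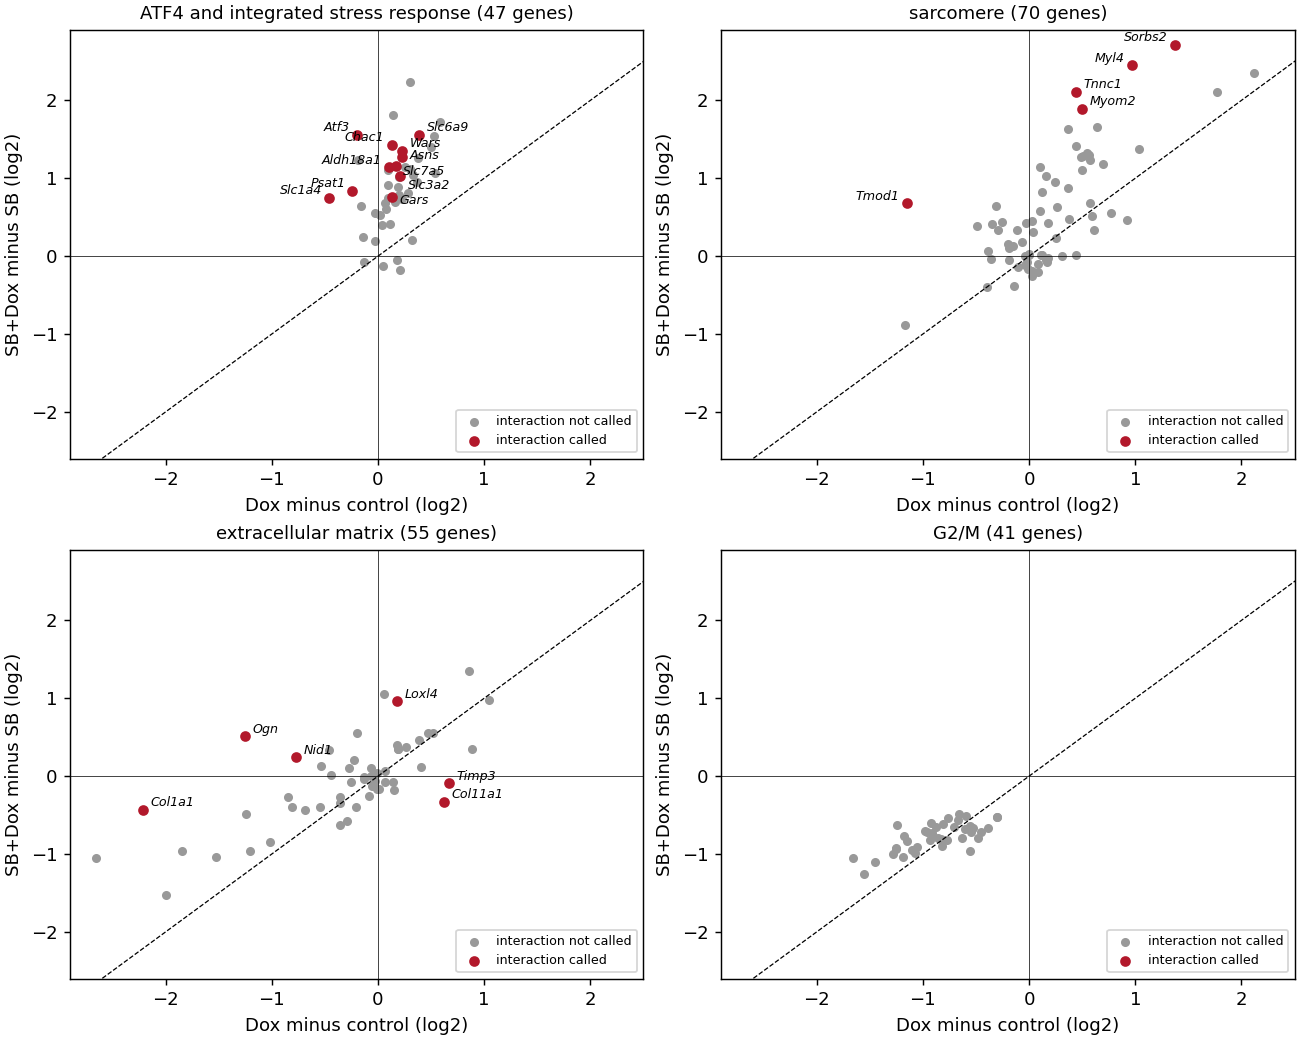
Doxycycline change without the inhibitor (horizontal, log2) against the change with it (vertical, log2) for the measured members of 4 gene lists, with called interactions in red and the dashed line at equal responses. ATF4 members lie near 0 on the horizontal axis and reach 2.24 (Cth) on the vertical one, while the 41 G2/M genes lie below 0 on both axes and near the line.

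Sarcomere genes, which build the contractile apparatus, had positive interactions where they were called, as most called genes did (152 positive and 35 negative). Doxycycline raised 9 and lowered 3 of 70 sarcomere genes without the inhibitor, and raised 25 and lowered 2 with it. Over all clusters 1.43% were raised and 3.88% lowered without the inhibitor, and 4.4% and 2.71% with it. In the interaction 5 of the 70 were called, all positive (7.14% against 0.938% over all genes), with a list median of 0.31. The called members ran from 1 without SB replicate 2 or SB+Dox replicate 3 to 8 without SB replicate 3. The number raised without the inhibitor ran from 5, without control replicate 3, Dox replicate 2 or Dox replicate 3, to 15 without SB replicate 1. Tnnc1, which encodes the slow and cardiac troponin C, measured 11.14, 11.39 and 11.12 in control, 11.53, 11.78 and 11.67 in Dox, 8.47, 9.30 and 9.59 in SB, and 11.08, 11.24 and 11.36 in SB+Dox. The SB arrays were far below the others and SB+Dox overlapped control. The rise was 2.11 with the inhibitor (4.31-fold, adjusted p = 5.83e-05) and 0.44 without it (adjusted p = 0.328), an interaction of 1.66 ± 0.29 (adjusted p = 0.0194) that was lost without SB replicate 2 (0.0549) and SB+Dox replicate 3 (0.0547). Myom2, an M-band protein, measured 9.16, 9.35 and 9.22 in control, 9.60, 9.83 and 9.80 in Dox, 7.59, 8.14 and 8.58 in SB, and 9.92, 9.89 and 10.17 in SB+Dox. SB was lowest and SB+Dox highest, and the interaction of 1.39 ± 0.26 (adjusted p = 0.0251) was lost in 7 left-out fits with adjusted p up to 0.0761.

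Myl4, the embryonic and atrial essential light chain, rose in both settings. It measured 9.78, 10.20 and 10.32 in control, 10.74, 11.21 and 11.26 in Dox, 6.63, 7.10 and 7.16 in SB, and 9.16, 9.38 and 9.71 in SB+Dox. The 4 groups did not overlap, and SB+Dox stayed below control. Doxycycline raised Myl4 by 0.97 without the inhibitor (adjusted p = 0.00568) and by 2.45 with it (adjusted p = 1.17e-05), an interaction of 1.48 ± 0.27 (adjusted p = 0.024). That call was lost without control replicate 3 (0.0542), SB replicate 1 (0.0581), SB replicate 2 (0.0625) and SB+Dox replicate 3 (0.0611). The calcium store protein gene Casq2 and the Z-disc and costamere adaptor gene Sorbs2 behaved alike in direction, with rises of 1.08 and 1.37 without the inhibitor and 2.44 and 2.71 with it, and interactions of 1.35 each (adjusted p = 0.0435 and 0.0471). Casq2 was lost in 11 and Sorbs2 in 10 left-out fits, with adjusted p up to 0.129 and 0.13. On the linear signal scale the sign of the interaction turned negative for 4 of the 158 positive clusters, Myl4, Sorbs2, Gas1 and Matn2 (the last named after its value was seen), and for 0 of the 37 negative ones.

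Jph2, which couples the transverse tubule to the calcium store, had an interaction of 1.05 ± 0.22 (adjusted p = 0.0435) and was lost in 9 left-out fits. Casq2 and Jph2 were the 2 called members among 31 calcium handling genes (6.45% against 0.938% over all genes), whose median was 0.32. Of the 12 left-out fits 9 called 0 of them, and the fit without SB replicate 3 called 7. The embryonic myosin gene Myh3, the actin gene Acta1 and the fusion gene Mymk had coefficients of 1.26, 0.70 and 0.99 that did not pass (adjusted p = 0.167, 0.113 and 0.0883). Ankrd1, a stretch-responsive nuclear and sarcomeric protein, was the 1 called member of 40 myogenic regulators (2.5%), with 0.98 ± 0.21 (adjusted p = 0.0498), lost in 10 left-out fits with adjusted p up to 0.149. Myod1 measured 10.37, 10.50 and 9.99 in control, 10.38, 10.56 and 10.23 in Dox, 9.45, 9.95 and 9.79 in SB, and 9.18, 9.40 and 9.15 in SB+Dox, lowest in SB+Dox, and its coefficient of −0.59 did not pass (adjusted p = 0.267). The 40 fusion and adhesion genes had 0 members called and a median of −0.01, with Itga6, the alpha-6 integrin, nearest to a call (1.12, adjusted p = 0.0526).

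The most positive coefficient of all belonged to Dhrs9, a retinol dehydrogenase, which measured 6.30, 5.95 and 7.41 in control, 6.06, 5.80 and 7.12 in Dox, 5.68, 5.54 and 5.54 in SB, and 7.97, 7.54 and 8.47 in SB+Dox. SB+Dox was above every other array and replicate 3 was the highest array of control and of Dox. The interaction was 2.64 ± 0.50 (adjusted p = 0.0275), lost in 7 left-out fits with adjusted p up to 0.0855. Tmem74, a lysosomal membrane protein linked to autophagy, rose by 1.30 with the inhibitor (adjusted p = 4.69e-04) against −0.37 without it (adjusted p = 0.322). Its interaction of 1.66 ± 0.24 (adjusted p = 0.00852) was called whichever array was left out.

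Of the 12 clusters with opposite responses, 10 fell without the inhibitor and rose with it. Tmod1, which caps the pointed ends of actin filaments in the sarcomere, measured 9.12, 8.95 and 8.51 in control, 7.60, 8.05 and 7.47 in Dox, 9.49, 9.49 and 9.55 in SB, and 10.10, 10.20 and 10.27 in SB+Dox. The groups did not overlap, and their order was Dox, control, SB and SB+Dox from low to high. With doxycycline, Tmod1 fell by 1.15 without the inhibitor (adjusted p = 3.64e-04) and rose by 0.68 with it (adjusted p = 0.0139). The interaction was 1.83 ± 0.22 (adjusted p = 0.00253), called whichever array was left out and in the fit to all clusters (0.0494). Of the other 4 called sarcomere genes, Myl4 and Sorbs2 rose in uninhibited cells, while the changes of Tnnc1 (0.44) and Myom2 (0.50) did not pass there (adjusted p = 0.328 and 0.166).

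Anxa3, an annexin, measured 9.55, 9.45 and 9.39 in control, 9.18, 9.01 and 9.18 in Dox, 9.67, 9.50 and 9.51 in SB, and 10.49, 10.48 and 10.62 in SB+Dox. SB+Dox stood clearly above the rest and Dox was slightly below control. Its change was −0.34 without the inhibitor (adjusted p = 0.0466) and 0.97 with it (adjusted p = 5.57e-05), and its interaction of 1.31 ± 0.13 (adjusted p = 8.59e-04) shared the lowest adjusted p with Oxct1. Il17rc, a subunit of the interleukin-17 receptor, had changes of −0.79 (adjusted p = 2.03e-04) and 0.41 (adjusted p = 0.0191) and an interaction of 1.20 ± 0.14 (adjusted p = 0.00253). Masp1, a serine protease of the lectin complement pathway, had changes of −0.62 (adjusted p = 0.0388) and 0.88 (adjusted p = 0.00411) and an interaction of 1.50 ± 0.23 (adjusted p = 0.0122). These 3 genes were called whichever array was left out, and Anxa3 and Il17rc also in the fit to all clusters (0.00812 and 0.0205). Fam171b had 1.39 ± 0.22 (adjusted p = 0.015) and was lost without SB replicate 2 (0.0549).

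Rrm2 and Ptgfrn were the 2 genes that rose without the inhibitor and fell with it. Rrm2, the regulated subunit of ribonucleotide reductase that makes DNA precursors in S phase, measured 7.60, 8.03 and 7.51 in control, 8.66, 8.64 and 8.26 in Dox, 7.67, 7.95 and 7.67 in SB, and 6.95, 7.22 and 6.73 in SB+Dox. Dox was highest and SB+Dox lowest, and control and SB overlapped. The change was 0.81 without the inhibitor (adjusted p = 0.00641) and −0.79 with it (adjusted p = 0.00695), an interaction of −1.60 ± 0.23 (adjusted p = 0.00852), called whichever array was left out. Its list moved otherwise: of 40 DNA replication genes, doxycycline lowered 29 without the inhibitor and 29 with it, against 3.88% and 2.71% of all clusters, Rrm2 was the 1 raised in uninhibited cells, and no other member was called in the interaction. Its partner subunit gene Rrm1 changed by −0.61 in uninhibited cells. Ptgfrn, a membrane protein that associates with tetraspanins, measured 8.26, 8.24 and 8.24 in control, 8.73, 8.89 and 8.88 in Dox, 8.25, 8.24 and 8.40 in SB, and 7.91, 7.80 and 7.95 in SB+Dox. Dox was above and SB+Dox below the other arrays, and control and SB overlapped. Its interaction of −0.99 ± 0.12 (adjusted p = 0.00361) was called whichever array was left out and in the fit to all clusters (0.0232).

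**Figure D5:**
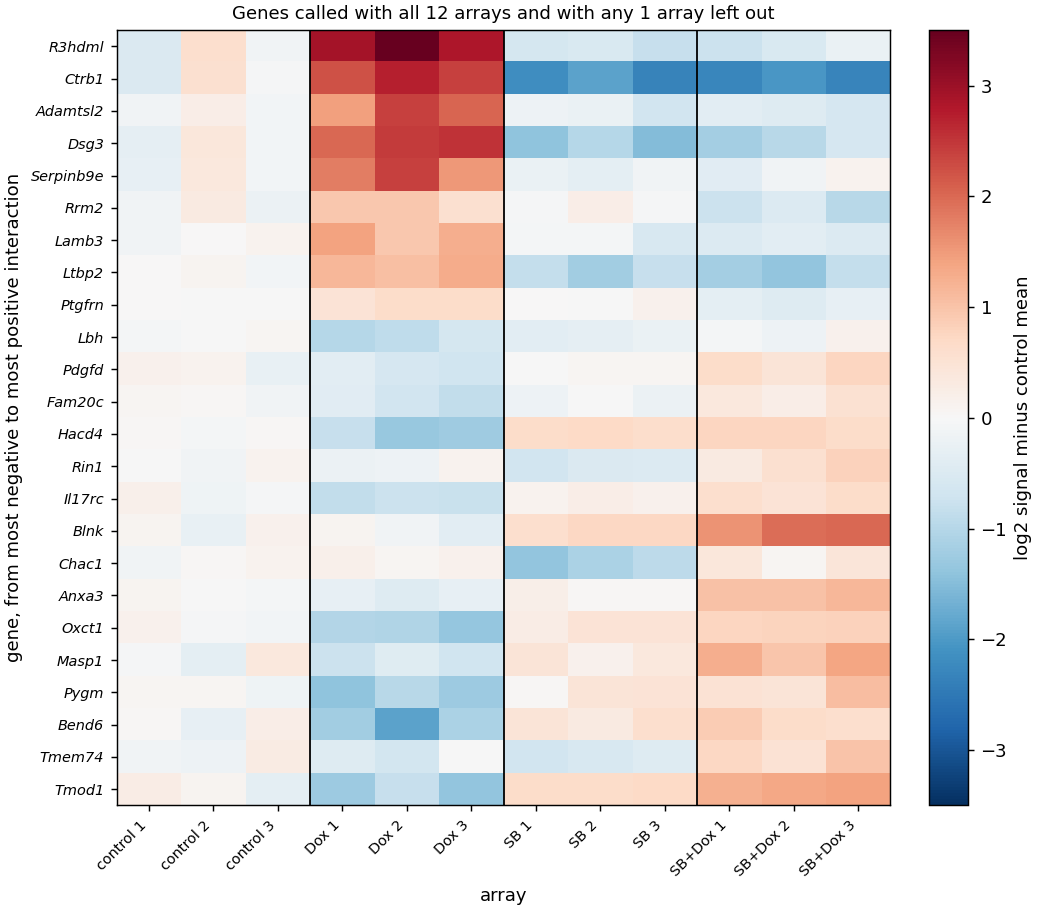
Log2 signal minus the control mean (colour) on the 12 arrays for the 24 genes that were called with all arrays and with any 1 array left out, ordered from R3hdml (−3.07) to Tmod1 (1.83). The 9 negative genes are highest in Dox, and most of the 15 positive ones are low in Dox or high in SB+Dox.

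Sema3c, a secreted semaphorin, fell in both settings: it measured 7.86, 7.75 and 8.31 in control, 5.62, 5.32 and 6.17 in Dox, 8.85, 8.85 and 9.00 in SB, and 8.28, 8.06 and 8.32 in SB+Dox. Dox was far below the rest, and SB was the highest. The changes were −2.27 (adjusted p = 1.35e-05) and −0.68 (adjusted p = 0.0354), with an interaction of 1.59 ± 0.26 (adjusted p = 0.015) lost without SB replicate 2 (0.0583) and SB+Dox replicate 3 (0.0516).

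Called genes of the MAP kinase feedback and p38 pathway lists had positive interactions, as most called genes did (152 positive and 35 negative). Etv5, an ETS factor that ERK signalling induces, was called by 2 clusters, with 1.57 (adjusted p = 0.0251) and 1.14 (adjusted p = 0.048), which were lost in 7 and 11 left-out fits with adjusted p up to 0.0829 and 0.146. Errfi1, a feedback inhibitor of the EGF receptor, had 0.75 ± 0.16 (adjusted p = 0.0442) and was lost in 10. These were the 2 called members of 20 MAP kinase feedback genes (10% against 0.938% over all genes), whose median was 0.42 against −0.03. With 1 array left out, 0 to 3 were called, with 0 in 9 of the 12 fits and 3 without SB+Dox replicate 1. Mknk2, a kinase activated by ERK and p38 that phosphorylates eIF4E, was the 1 of 30 p38 pathway genes called (3.33%), with 0.65 ± 0.13 (adjusted p = 0.0291), lost in 10. The coefficients of Mapk14 and Mapk11 were 0.23 (adjusted p = 0.528) and 0.41 (adjusted p = 0.172). Sgk1, a serum- and glucocorticoid-induced kinase, was negative (−1.35 ± 0.26, adjusted p = 0.0275), since it rose by 1.38 without the inhibitor (adjusted p = 3.28e-04) and by 0.03 with it, and was lost in 8 left-out fits with adjusted p up to 0.0855.

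Mitotic genes fell in both settings. Of 41 G2/M genes, doxycycline lowered 37 without the inhibitor and 41 with it and raised 0, against 3.88% and 2.71% of all clusters lowered, and 0 were called in the interaction, with a median of 0.13. Without SB+Dox replicate 3 the 41 became 26. Top2a, the topoisomerase that untangles chromosomes, had the largest coefficient of the list, with changes of −1.66 (adjusted p = 1.23e-04) and −1.05 (adjusted p = 0.00317) and an interaction of 0.62 that did not pass (adjusted p = 0.371). Averaged over the G2/M genes, the log2 level of an array was 5.77 to 6.20 without either agent and 4.99 to 5.14 with doxycycline alone. It was 6.52 to 6.71 with the inhibitor alone and 5.64 to 6.09 with both. In all, 17 of the 33 lists had 0 members called, Notch and Wnt genes among them. Of the 908 different list genes measured, 37 were called positive and 6 negative. Over all 19938 genes, each by its brightest cluster, 152 were called positive and 35 negative. Dim genes are part of this background: 184 of the 195 called clusters lay in the brighter 50% by highest group mean. For a list of bright genes the share of 0.938% is therefore too low a yardstick. The lists were chosen with earlier results of these data known. Simulated interactions of 0.6 were recovered in 30% of cases and of 1 in 94%, in clusters picked at random. The simulated noise was independent between arrays, so these rates may be too high for the real data. A list with 0 calls may still hold differences of the smaller size, and larger ones in genes with a wide spread. The fibroblast marker Dcn (1.59 ± 0.48) and the smooth muscle marker Tagln (1.43 ± 0.42) were not called, and both marker lists had 0 calls.

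The same coefficient can be read through the inhibitor, where SB+Dox against Dox had 10.4% of all tested clusters called and SB against control 6.38%. Of the 158 positive clusters, SB+Dox was called above Dox in 120 and below it in 4, against 6.97% and 3.43% of all clusters, while SB was called above control in 26 and below it in 42, against 2.51% and 3.87%. Of the 37 negative ones, SB+Dox was called below Dox in 31 and above it in 0, and SB was called below control in 10 and above it in 5. The coefficient is also the change from Dox to SB+Dox minus the change from control to SB. These directions therefore follow in part from the selection of the clusters, and the shares of all clusters are given for scale only. Chac1, Tnnc1 and Myl4 were among those with a lower level in SB than in control, where they fell by 1.14, 2.10 and 3.14.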

How the data were processed

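RNA of the 12 samples was measured on Affymetrix whole-transcript arrays, 3 per group, with the group taken from the treatment label. The deposited values are log2 signals, which the authors made with RMA in Affymetrix Expression Console, per the submitters' processing notes; versions are not given in the sources used here. They ran from 0.50 to 13.17 with 0 missing values. Of 35557 transcript clusters, 21789 had 1 symbol in the platform annotation, 1621 several and 12147 none, and only the first were tested. Signal over background was not used, and 3 arrays per group set the precision.

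The log2 values were fitted with limma 3.58.1 in R 4.3.3 as 4 group means (8 residual and 6.56 prior degrees of freedom), followed by eBayes without trend. Within each contrast, p-values were adjusted over 21789 clusters by the Benjamini-Hochberg method, and calls were made under 0.05 with no minimum fold. Errors are SE unless named otherwise. Folds are powers of 2 of the log2 differences. Genes are given by their brightest cluster. Named are Myog, Myod1, Mapk14 and Mapk11, the 15 most positive and 15 most negative called genes, 5 per response class and sign, and up to 4 called members of each of 33 gene lists, or the member with the largest coefficient where none was called. Predicted genes, small RNAs and receptor segments were not named. The genes and lists were chosen with earlier results of these data known, and the pattern TGATGNAA and the linear scale were added after these results were seen.

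A test used simulated data, drawn with each cluster's moderated spread and with noise independent between arrays. It recovered 30% of interactions of 0.6, 94% of those of 1 and 100% of those of 1.5 and 2, with 5 of 21589 unchanged clusters called. Alternatives were a block for the replicate number, median centring, quantile normalisation, leaving out dim clusters, a trend in eBayes, array weights, all clusters in 1 fit, and each array left out. Replicate numbers come from the sample titles. Deviations from group means of same-numbered arrays correlated between −0.14 and 0.49, over 0.1 in 10 of 18 pairs. By that limit the numbers were not taken to pair the arrays in the interaction. The limit was a choice, and in 11 of 18 pairs the own number correlated best, so a pairing is not excluded. A block for the number gave 421 interaction calls, with all 195 among them. For SB and SB+Dox all 3 pairs lay over 0.1 (0.19 to 0.49). With the block that contrast gave 1972 calls against 1550, of which 1538 were shared, and of the 85 named genes it added calls for Irs1, Dcn, Inhba, Hbegf, Myod1 and Magea7-ps.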

Additional observations from a re-analysis of the deposited data

Results flagged for a closer look

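A difference of doxycycline responses between inhibited and uninhibited cells was tested directly by the interaction, and each named gene that passed is given here with its coefficient on the log2 scale (limma, Benjamini-Hochberg adjusted p under 0.05). The calls are not independent of the report, which describes the same coefficients.

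Among positive coefficients of genes first described by metabolism, transport or signalling, Dhrs9 had 2.64, Car2 1.67, Tmem74 1.66, Bend6 1.65, Pygm 1.56, Oxct1 1.50, Masp1 1.50, B3galt2 1.44, Fam171b 1.39, Anxa3 1.31, Il17rc 1.20 and Cox6a2 1.16. Slc24a3, a potassium-dependent sodium-calcium exchanger, had 1.55, from a fall of 1.13 without the inhibitor (adjusted p = 0.00407) against a change of 0.42 with it (adjusted p = 0.273). B3galt2, a galactosyltransferase, rose by 0.93 with the inhibitor (adjusted p = 0.0102) against −0.51 without it (adjusted p = 0.214).

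Sarcomere and calcium store genes had Tmod1 at 1.83, Tnnc1 at 1.66, Myl4 at 1.48, Myom2 at 1.39, Casq2 at 1.35, Sorbs2 at 1.35, Jph2 at 1.05 and Ankrd1 at 0.98. The dystrophin complex member Sntb2, a syntrophin, had 0.59.

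Matrix and secreted proteins with positive coefficients were Aspn at 1.80, Col1a1 at 1.78, Ogn at 1.76, Sema3c at 1.59, Inhba at 1.09, Nid1 at 1.01, Has2 at 0.92 and Hbegf at 0.63. Hbegf, an EGF receptor ligand, was called with all arrays (adjusted p = 0.05) and in 0 of the 12 fits with an array left out.

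Stress response genes named were Atf3 at 1.76, Chac1 at 1.30, Slc1a4 at 1.21 and Slc6a9 at 1.17. Signalling and cycle genes were Ccnd1 at 1.36, Etv5 at 1.14, Irs1 at 1.13, Gas1 at 0.92, Cdk6 at 0.90, Smurf1 at 0.76, Errfi1 at 0.75 and Mknk2 at 0.65.

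Negative coefficients were R3hdml at −3.07, Anxa8 at −2.79, Ctrb1 at −2.52, Adamtsl2 at −2.06, Rrad at −1.95, Dsg3 at −1.92, Serpinb9e at −1.81, Htr2b at −1.75, Rrm2 at −1.60, Jup at −1.49, Lamb3 at −1.41, Ctsw at −1.37, Sgk1 at −1.35, Ltbp2 at −1.34, Fst at −1.27, Srpx2 at −1.09, Ptgfrn at −0.99 and Col11a1 at −0.95. The smaller ones were Vsnl1 at −0.85, Lrrc30 at −0.74, Pabpc1l at −0.71 and Magea7-ps at −0.64.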

How the results depend on the processing

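Counts of calls moved with the processing. The direction of the 195 called clusters held in every alternative that tested them on the log2 scale. They were selected in the same arrays for coefficients large against their error, so a change of sign was unlikely from the start. With 1 array left out, the total ran from 27 to 352, positive calls from 17 to 283, negative calls from 10 to 69, responses without the inhibitor only from 14 to 144, with it only from 5 to 160, in the same direction from 0 to 20, in opposite directions from 4 to 21, and in neither from 0 to 7. A block for the replicate number gave 421 calls, 356 positive and 65 negative, and in the same order of classes 158, 187, 39, 27 and 10. Over all 4 groups the numbers were not taken to pair the arrays by the rule used. Yet in 11 of 18 same-numbered pairs the own number correlated best, so a pairing is not excluded. Array weights gave 678 calls, 546 positive and 132 negative, in classes of 254, 319, 40, 38 and 27. Quantile normalisation gave 79 calls, 50 positive, in classes of 50, 20, 2, 7 and 0. Fitting every cluster of the table gave 6 calls, 4 positive and 2 negative, in classes of 3, 1, 0, 2 and 0. There the clusters with several symbols or none had a median residual SD of 0.223 against 0.142, the prior degrees of freedom were 3.10 against 6.56, and adjusting over the 1-symbol clusters alone still gave 6. Leaving out the dimmer 50% gave 317 calls, 275 positive, with 131 with the inhibitor only, 26 in the same direction and 30 in opposite directions, and leaving out the dimmest 25% gave 19 in opposite directions and 1 in neither. A trend in eBayes gave 104 with the inhibitor only and 19 in the same direction, and median centring gave 7 in the same direction. Of the named genes, 27 lost their call under quantile normalisation, 59 with every cluster and 8 under centring. The Myog coefficient, not called, was −0.03 with array weights and ran from −0.21 without SB replicate 1 to 0.43 without SB replicate 3. On the linear signal scale, added after these results were seen, the coefficients of Myl4, Gas1 and Sorbs2 turned to −505, −35 and −28 signal units. Dim clusters limit what can be seen below the array median, and effects near 0.6 on the log2 scale were mostly missed in simulation.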

Other observations

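Htr2b and Rrad are further genes that doxycycline raised in uninhibited cells. Htr2b, the serotonin 2B receptor, measured 6.00, 6.67 and 6.15 in control, 8.17, 8.85 and 8.38 in Dox, 4.38, 4.34 and 4.81 in SB, and 4.44, 5.09 and 5.33 in SB+Dox. Dox lay above control and both inhibited groups below it, with SB and SB+Dox overlapping. The rise of 2.19 without the inhibitor (adjusted p = 9.23e-05) met a change of 0.44 with it (adjusted p = 0.295). Its call was lost in 5 of the 12 left-out fits, with adjusted p up to 0.0711. Rrad, a small GTPase that restrains voltage-gated calcium channels, measured 6.35, 6.62 and 6.11 in control, 7.82, 8.74 and 7.45 in Dox, 5.44, 5.44 and 5.28 in SB, and 5.24, 4.98 and 5.01 in SB+Dox. The order was the same, except that SB+Dox lay below SB on all 3 arrays. Its call was lost without SB replicate 1 (adjusted p = 0.0503), SB replicate 2 (0.0625) and SB+Dox replicate 3 (0.0527).

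A smaller set of negative genes fell with doxycycline in inhibited cells and did not pass in uninhibited ones. Srpx2, a secreted sushi-domain protein, measured 9.41, 9.51 and 9.14 in control, 9.73, 9.63 and 9.16 in Dox, 8.51, 8.78 and 8.79 in SB, and 7.62, 7.91 and 7.73 in SB+Dox. Control and Dox overlapped, and SB+Dox lay below SB, a fall of 0.94 (adjusted p = 0.00151). Lrrc30, a leucine-rich repeat protein, measured 4.98, 4.88 and 4.92 in control, 4.98, 4.95 and 4.90 in Dox, 5.51, 5.84 and 5.74 in SB, and 5.07, 5.03 and 4.83 in SB+Dox. Only the SB arrays of Lrrc30 stood apart, above the other 9. Srpx2 was lost in 7 and Lrrc30 in 9 left-out fits, with adjusted p up to 0.0948 and 0.0958.

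Some genes of the cell type marker lists had large coefficients without a call. Dcn, a proteoglycan of fibroblast matrix, had 1.59 (adjusted p = 0.175), the smooth muscle actin-binding gene Tagln 1.43 (adjusted p = 0.167) and the fatty acid carrier gene Cd36 1.12 (adjusted p = 0.124). Myf5, a myogenic factor of satellite cells and myoblasts, had 0.82 (adjusted p = 0.0897). Each was the member with the largest coefficient in its list. Of the measured members, 13 of 18 fibroblast, 14 of 18 smooth muscle, 6 of 16 adipocyte and 11 of 20 satellite and reserve cell markers had a coefficient above 0, with medians of 0.07, 0.15, −0.05 and 0.18. Cd36 lay below the median of the tested clusters on all 12 arrays. Dcn changed by −2.65 without the inhibitor (adjusted p = 3.00e-04) and by −1.05 with it (adjusted p = 0.0826, or 0.00509 with a block for the replicate number).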
